A study of Mus musculus with 4 samples.

Results

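Mouse DFAT cells transfected with a control siRNA were set against mouse DFAT cells given DMSO, each measured on 1 Affymetrix array. These are 2 of the 4 arrays of the series; the others hold DFAT cells treated with the small molecule Y-27632, and DFAT cells transfected with an siRNA against Mkl1, the actin-regulated coactivator of SRF now named Mrtfa. The study's title names Y-27632 and Mkl1 siRNA, so each array described here was the matching control. All 4 groups were DFAT cells, fat cells that have lost their lipid and returned to a fibroblast-like dividing state, kept in DMEM with fetal bovine serum. The labels name no strain, donor, clone, dose or time, no siRNA sequence or transfection reagent, and do not say whether the DMSO cells met a transfection reagent.

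Every probe set with 1 gene symbol entered the comparison, 34945 of 45101 after control probe sets were removed. They stand for 18193 genes, each read from its brightest probe set, and 11600 genes reached a log2 signal of 5.69, the median of all values, on at least 1 of the 4 arrays. A difference is the log2 RMA signal of the control siRNA array minus that of the DMSO array, and a gene was counted from 2-fold, which is 1 on this scale. With 1 array a side there is no replicate error and no test, and "higher" and "lower" describe these 2 arrays. Transfection, culture and array cannot be told apart, nor can fewer cells of a type and less RNA per cell.

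Transfected small interfering RNA can be met by sensors of foreign nucleic acid, among them Toll-like receptors, RIG-I and the kinase PKR. These lead to type I interferon and then, through the STAT and IRF9 complex, to interferon-stimulated genes such as the OAS, MX and IFIT families. A scarcity of amino acids or stress in the endoplasmic reticulum raises the transcription factor ATF4, whose targets make and import amino acids. Fibroblast-like cells of fat tissue also make much of the tissue's matrix, growth factors and chemokines.

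The 2 control arrays differed 2-fold in few genes, in both directions, from -4.28 for Lum to 3.40 for Car8. On the control siRNA array 111 genes were at least 2-fold higher, 0.957% of those analysed, and 126 were at least 2-fold lower, 1.09%. In all 237 genes, 2.04%, differed 2-fold. From 4-fold there were 14 higher and 21 lower genes, and from 8-fold 5 higher and 3 lower. The differences of 10382 genes, 89.5%, lay within 0.5 of 0, and their median was -0.01 with quartiles of -0.18 and 0.16. Genes above and below 0 were near balance, 5627 against 5959. The values just inside and outside the threshold were 1.0006 and 0.9994 on the higher side and -1.01 and -0.997 on the lower side. Several probe sets were available for 65 of the higher genes, and in 60 of them all lay above 0; of 58 lower genes with several, all lay below 0 in 52.

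**Figure D1:**
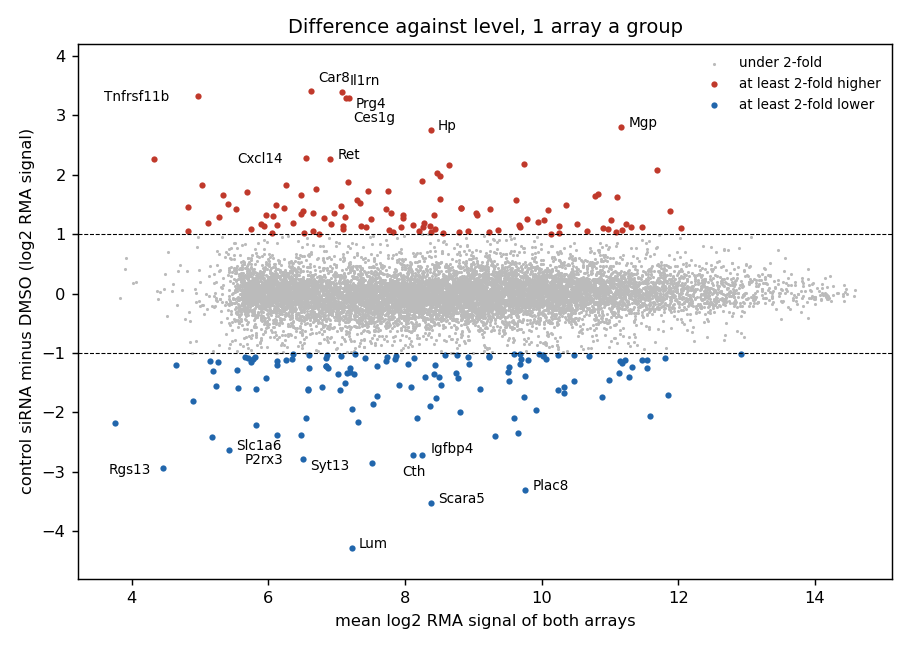
Each point is 1 of 11600 genes, with the mean log2 RMA signal of both arrays on the x axis and the control siRNA minus DMSO difference on the y axis; dashed lines mark 2-fold. The 111 higher genes reach 3.40 (Car8) and the 126 lower genes reach -4.28 (Lum), across the whole range of signal.

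The cells' labelled identity was checked against markers. Of 8 adipose stroma and fibroblast markers with a probe set, 7 reached the median signal with DMSO and 6 with control siRNA, Lum being the marker that dropped under it. Of 8 adipocyte markers 6 reached it on both arrays, Adipoq at 10.14 and 10.03 and Lpl at 13.98 and 14.07. Smooth muscle markers reached it in 6 of 8 on both arrays. Markers of chondrocytes, osteoblasts, myoblasts, endothelium, leukocytes, mesothelium and epithelium reached it in at most 4, with Ptprc, Itgam, Adgre1, Pecam1 and Cdh1 under the filter. Above it were Epcam (9.73 with DMSO and 9.75 with control siRNA), Krt19 (8.64 and 8.05), Sox9 (8.31 and 8.11), Des (8.01 and 8.10) and Cd14 (7.28 and 7.98). None of the analysed markers of these 8 other cell types differed 2-fold between the arrays. The 3 probe sets of 18S ribosomal RNA were higher by 0.14 to 0.21 with control siRNA, and the 3′ minus 5′ signal of Actb was 0.84 with DMSO and 0.81 with control siRNA.

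Car8 showed the widest difference upward. It encodes a catalytically inactive relative of the carbonic anhydrases, and its log2 signal was 4.93 with DMSO, 8.33 with control siRNA, 5.93 with Y-27632 and 9.09 with Mkl1 siRNA, a control siRNA minus DMSO difference of 3.40. Both siRNA arrays were high and both arrays without siRNA were low. Its 3 probe sets differed by 0.49 to 3.40. Il1rn, the secreted antagonist of the interleukin 1 receptor, stood at 5.39 with DMSO, 8.78 with control siRNA, 7.32 with Y-27632 and 8.46 with Mkl1 siRNA. Its difference was 3.39 and all 3 probe sets lay above 0, the lowest at 1.76. Tnfrsf11b encodes osteoprotegerin, the decoy receptor for RANK ligand, and stood at 3.31 with DMSO, 6.64 with control siRNA, 3.27 with Y-27632 and 6.78 with Mkl1 siRNA. Its difference of 3.33 came from a DMSO signal near the bottom of the scale, and its other probe set differed by 0.21. Averaged over probe sets Car8, Il1rn and Tnfrsf11b were higher by 1.78, 2.51 and 1.77.

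Prg4, the joint and tissue lubricant lubricin, stood at 5.53 with DMSO, 8.82 with control siRNA, 6.55 with Y-27632 and 10.03 with Mkl1 siRNA. Ces1g, a carboxylesterase of lipid metabolism with close paralogs that could share probes, stood at 5.49, 8.78, 5.67 and 8.67 in the same order. Both again separated the siRNA arrays from the others, with differences of 3.30 and 3.28. Mgp, an inhibitor of matrix calcification, followed another order: 9.76 with DMSO, 12.56 with control siRNA, 11.82 with Y-27632 and 10.17 with Mkl1 siRNA. Hp, the haemoglobin scavenger haptoglobin, was lowest with DMSO at 7.002, against 9.75 with control siRNA, 10.64 with Y-27632 and 11.58 with Mkl1 siRNA. Lcn2, the iron-carrier binding protein lipocalin 2, stood likewise at 4.11, 5.94, 8.39 and 8.21. For Hp and Lcn2 the DMSO array was the lowest of the 4, and the Y-27632 array was above control siRNA.

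Receptors and signalling enzymes were also among the 20 steepest higher genes. Ret, the receptor kinase for ligands of the GDNF family, was higher by 2.26, and Olr1, a receptor for oxidised lipoprotein, by 2.26. Olr1 stood at 3.20 with DMSO and 5.46 with control siRNA, both under the filter. It was analysed only because the Mkl1 siRNA array reached 8.08. Ahr, the aryl hydrocarbon receptor, stood at 5.34 with DMSO, 7.17 with control siRNA, 5.92 with Y-27632 and 9.34 with Mkl1 siRNA. Nox4, an oxidase that makes hydrogen peroxide, differed from all of these. It stood at 7.46 with DMSO, 9.48 with control siRNA, 6.78 with Y-27632 and 7.24 with Mkl1 siRNA, so that the control siRNA array alone was high. Emb, an adhesion glycoprotein that partners monocarboxylate transporters, was higher by 2.17, Egr3, an early growth response factor, by 1.87, and Kif26b, of the kinesin family, by 1.76. The second probe set of Egr3 differed by 0.06, and the average of the pair was 0.96. Averaged over probe sets Ret, Ahr and Emb were higher by 1.36, 1.17 and 1.503.

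Lum showed the widest difference of all. Lumican, its product, is a keratan sulfate proteoglycan that binds collagen fibrils. Its log2 signal was 9.36 with DMSO, 5.08 with control siRNA, 11.43 with Y-27632 and 4.91 with Mkl1 siRNA, a difference of -4.28 in which the control siRNA signal lay under 5.69. Both siRNA arrays were low, and the arrays without siRNA were not close to each other. Scara5, a ferritin receptor and a marker of adipose progenitors, stood at 10.14 with DMSO, 6.62 with control siRNA, 11.34 with Y-27632 and 7.55 with Mkl1 siRNA. Plac8, a small cysteine-rich protein, stood at 11.42, 8.11, 11.33 and 7.27 in that order. Their differences were -3.53 and -3.31, and neither siRNA array overlapped the others. The second probe set of Scara5 differed by -0.49, and the average was -2.01.

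Receptors, a channel and vesicle or nerve proteins were among the 20 steepest lower genes; this grouping was made after their values were seen. Rgs13, which shortens signalling by G proteins, differed by -2.94 and ended at 2.98, near the bottom of the scale. Syt13, a synaptotagmin of vesicle traffic, stood at 8.93 with DMSO, 6.09 with control siRNA, 9.70 with Y-27632 and 6.49 with Mkl1 siRNA. P2rx3, an ATP-gated ion channel, stood at 7.89, 5.12, 8.15 and 5.59 in the same order. Averaged over probe sets they differed by -1.52 and -1.89. Gap43, a protein of growth cones, differed by -2.21, and Plxnc1, a semaphorin receptor, by -2.37. The 6 probe sets of Plxnc1 ran from -2.37 to -0.08, with an average of -0.85, under 2-fold. Agtr2, the type 2 receptor of angiotensin II, stood at 4.85 and 2.68, both under the filter, and was analysed only because the Y-27632 array reached 6.79. Slc1a6, a glutamate transporter, stood at 6.74 with DMSO, 4.10 with control siRNA, 5.26 with Y-27632 and 4.43 with Mkl1 siRNA. Here the DMSO array was the highest. Altogether the control siRNA signal of 27 lower genes and the DMSO signal of 27 higher genes lay under 5.69, where RMA compresses differences.

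Aldh1a7 was low on the control siRNA array alone: 10.84 with DMSO, 8.48 with control siRNA, 12.06 with Y-27632 and 12.62 with Mkl1 siRNA. It is a close copy of Aldh1a1, an aldehyde dehydrogenase that makes retinoic acid, which stood at 12.34 with DMSO and 11.27 with control siRNA, and probes could read both. Crabp1, a carrier of retinoic acid, differed by -1.19. It stood at 5.24 with DMSO and 4.05 with control siRNA, both under the filter. It was analysed only because the Y-27632 array reached 5.73. Adh1, an alcohol dehydrogenase that is not in the list below, differed by -1.71 and was picked after its value was seen. In the list of retinoid metabolism and aldehyde oxidation 3 of 12 analysed genes were 2-fold lower, beside 1.09% of all genes, and 0 higher. These 3 were Aldh1a7, Aldh1a1 and Crabp1, with the limits given above. The median was -0.13, and 0.066 when the filter used the 2 compared arrays alone. Igfbp4, which binds insulin-like growth factors, stood at 9.60 with DMSO, 6.89 with control siRNA, 10.44 with Y-27632 and 7.40 with Mkl1 siRNA. All 6 of its probe sets lay below 0, from -2.71 to -0.21, with an average of -1.43. The other 14 analysed genes of the IGF axis were all within 2-fold, Igf1 at 0.09 and Igf1r at -0.12.

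**Figure D2:**
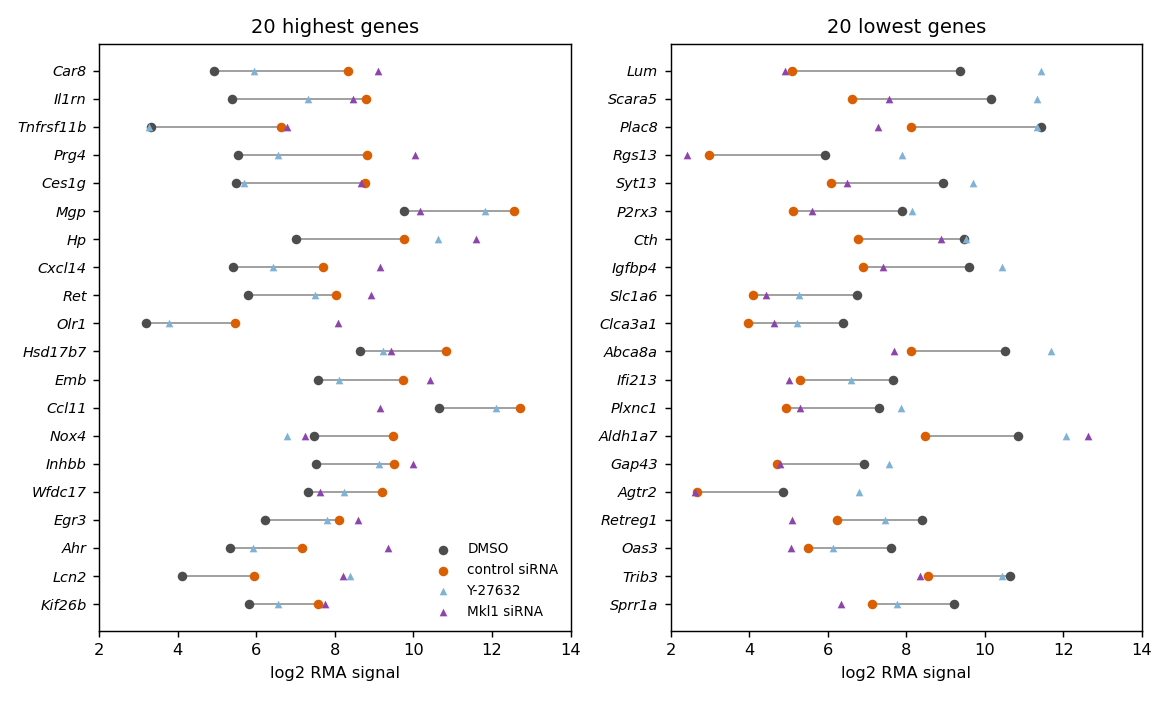
The log2 RMA signal of the 20 steepest higher and the 20 steepest lower genes is shown on all 4 arrays, 1 point an array. Control siRNA and Mkl1 siRNA lie together for Ces1g (8.78 and 8.67) and Lum (5.08 and 4.91), and apart for Aldh1a7 (8.48 and 12.62).

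Interferon-stimulated genes were lower on the control siRNA array as a group. Of 35 listed genes 32 were analysed, 30 lay below 0, 12 were at least 2-fold lower and 1 was at least 2-fold higher. Their median was -0.81, beside -0.01 over all genes, and 1.09% of all genes were 2-fold lower. The antiviral OAS enzymes make the activator of the RNA-degrading enzyme RNase L. Oas3 stood at 7.60 with DMSO, 5.50 with control siRNA, 6.12 with Y-27632 and 5.07 with Mkl1 siRNA. Oas2 stood at 9.90, 8.30, 9.30 and 8.16 in that order, and Oas1a at 11.98, 10.57, 11.05 and 10.69. The DMSO array was the highest of the 4 for all 3 OAS genes. Mx1, a GTPase that blocks viral replication, stood at 8.46 with DMSO, 6.61 with control siRNA, 7.94 with Y-27632 and 5.63 with Mkl1 siRNA.

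Other effectors lay lower too. Rsad2 encodes viperin, an enzyme that makes a chain-terminating nucleotide, and stood at 11.80 with DMSO and 10.47 with control siRNA. Trim30a differed by -1.57, Iigp1, a GTPase that attacks parasite vacuoles, by -1.24, and Ifit2, which acts on translation of viral RNA, by -1.12. Irf7, the factor that amplifies interferon production, stood at 9.54 with DMSO, 8.35 with control siRNA, 8.42 with Y-27632 and 7.94 with Mkl1 siRNA. Oasl2, Mx2 and Igtp complete the 12, at -1.10, -1.06 and -1.05. Ifi27 went the other way, at 11.49 with DMSO and 12.59 with control siRNA, and Gbp2 was at 0.24. Cxcl10, a chemokine that interferon induces, was at -0.19.

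The listed sensors of foreign nucleic acid and their adaptors differed less. Of 16 analysed sensors and adaptors 13 lay below 0 and 0 passed 2-fold, with a median of -0.25. Dhx58 and Ddx58, of the RIG-I family, were at -0.76 and -0.44, Ifih1 at -0.53, Tlr3 at -0.71 and Eif2ak2, the kinase PKR, at -0.26. Among 12 analysed genes of MHC class I presentation 11 lay below 0 and 0 passed 2-fold, with Psmb8, an immunoproteasome subunit, at -0.99 and H2-K1 at -0.78. The 14 analysed genes of the RNA interference machinery had a median of 0.01 and 0 passed 2-fold. Ago2, which cuts the siRNA's target, was at 0.11 and Dicer1 at -0.30.

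Promoters of lower genes of the interferon list are shown because many hold the letters of one motif. Those letters were not used to choose the list. Genes listed as answering to interferon would be likely to hold them, so the matches are no independent support. The 250 bases before the RefSeq start (GRCm38.p6) were searched on both strands for the core of the interferon-stimulated response element, GAAA and GAAA with any 2 bases between them, and for a core of the ATF4 site, TGATGNAA, in which N is any base. Neither motif contains the other. A gene counted if any listed start matched. The interferon core was in 936 of 27025 genes with a promoter, 3.46%, and in 14 of 23 genes of the interferon list, 60.9%. It was in 5 of the 8 with a promoter that were 2-fold lower, 62.5%. That is near the share of the list, so the core did not set the lower genes apart. It was in 0 of 24 genes of the ATF4 list. A match is a description of letters, not of binding. The promoters of Oas3 (chr5:120777660-120777909, minus strand), Oas1a (chr5:120907526-120907775, minus strand) and Rsad2 (chr12:26456453-26456702, minus strand) are printed 5′ to 3′ along the gene, with the matches in capitals. They begin 75 bases before the start in Oas3 and 120 in Rsad2, where the match is on the opposite strand. In Oas1a a pair of overlapping matches begins 20 and 14 bases before the start.
Oas3: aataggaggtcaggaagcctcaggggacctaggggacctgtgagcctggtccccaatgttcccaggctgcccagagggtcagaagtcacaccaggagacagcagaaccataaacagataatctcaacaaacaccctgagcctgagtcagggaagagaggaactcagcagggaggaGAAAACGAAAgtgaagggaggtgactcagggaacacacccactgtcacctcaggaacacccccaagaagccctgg
Oas1a: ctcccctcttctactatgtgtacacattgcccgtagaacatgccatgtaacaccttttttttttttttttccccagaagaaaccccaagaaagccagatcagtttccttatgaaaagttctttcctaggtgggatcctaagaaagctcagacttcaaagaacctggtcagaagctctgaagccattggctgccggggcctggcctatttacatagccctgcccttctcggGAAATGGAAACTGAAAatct
Rsad2: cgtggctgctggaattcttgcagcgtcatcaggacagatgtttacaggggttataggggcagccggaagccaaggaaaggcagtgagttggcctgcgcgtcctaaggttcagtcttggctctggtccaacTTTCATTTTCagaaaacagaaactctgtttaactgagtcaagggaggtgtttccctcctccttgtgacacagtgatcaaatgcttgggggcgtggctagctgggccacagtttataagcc

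Genes that ATF4 is known to drive were lower as a second group. Of 32 listed genes 29 were analysed, 26 lay below 0, 10 were at least 2-fold lower, beside 1.09% of all genes, and 0 were higher, with a median of -0.72. Cth, the enzyme that makes cysteine from cystathionine, stood at 9.47 with DMSO, 6.76 with control siRNA, 9.52 with Y-27632 and 8.89 with Mkl1 siRNA. The control siRNA array alone was low for Cth. Trib3, a pseudokinase that feeds back on ATF4, stood at 10.64, 8.54, 10.44 and 8.35 in that order. Chac1, which degrades glutathione, stood at 8.87 with DMSO, 7.29 with control siRNA, 8.27 with Y-27632 and 7.25 with Mkl1 siRNA. For Trib3 and Chac1 both siRNA arrays lay below both others.

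Enzymes of serine and one-carbon metabolism were among them. Phgdh, the first enzyme of serine synthesis, stood at 11.75 with DMSO, 10.01 with control siRNA, 11.54 with Y-27632 and 10.85 with Mkl1 siRNA. Psat1, the next enzyme, differed by -1.11. The mitochondrial enzymes Shmt2 and Mthfd2 differed by -1.38 and -1.03. Averaged over probe sets these were -0.81 and -0.996, and the 4 probe sets of Shmt2 ran from -1.38 to 0.42. Asns, which makes asparagine, stood at 12.03 with DMSO, 10.92 with control siRNA, 11.81 with Y-27632 and 10.69 with Mkl1 siRNA. Slc7a5, the carrier of large neutral amino acids, stood at 11.06, 9.43, 10.82 and 9.37 in the same order. The aminoacyl-tRNA synthetases Aars, Gars and Wars were at -0.70, -0.58 and -0.35. Atf4 itself was at -0.46 and Ddit3, the factor CHOP, at -0.60. Sesn2, Ddit4 and Slc38a2, also in the list, were at -0.00, -0.02 and 0.07.

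Chaperones of the endoplasmic reticulum did not share this shift. Of 20 analysed, 9 lay above 0 and 11 below, 0 passed 2-fold and the median was -0.00, with Hspa5, the chaperone BiP, at -0.21. Heat shock genes also had 0 past 2-fold. Among 18 analysed amino acid transporters Slc1a6 and Slc7a5 were 2-fold lower, beside 1.09% of all genes, and Slc7a2 was higher, beside 0.957%. Slc7a2, a carrier of cationic amino acids, was at 1.04, or 0.85 averaged over its probe sets. The median of the transporters was -0.34.

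The ATF4 core was in 1056 of 27025 genes with a promoter, 3.91%, and in 7 of 24 of the ATF4 list, 29.2%. Among the 8 with a promoter that were 2-fold lower it was in 3, Asns, Chac1 and Vldlr, 37.5%. The list holds genes that ATF4 is known to drive, so these matches too are no independent support. The ATF4 core was in 0 of 23 genes of the interferon list with a promoter. The promoters of Chac1 (chr2:119350992-119351241, plus strand) and Asns (chr6:7693210-7693459, minus strand) are printed to show it in capitals. The match begins 193 bases before the start in Chac1, on the opposite strand, and 23 in Asns.
Chac1: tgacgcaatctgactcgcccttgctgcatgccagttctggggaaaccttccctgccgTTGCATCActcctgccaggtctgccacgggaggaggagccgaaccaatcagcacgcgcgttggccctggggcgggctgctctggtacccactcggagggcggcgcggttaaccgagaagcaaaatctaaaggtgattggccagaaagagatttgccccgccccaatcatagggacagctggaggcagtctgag
Asns: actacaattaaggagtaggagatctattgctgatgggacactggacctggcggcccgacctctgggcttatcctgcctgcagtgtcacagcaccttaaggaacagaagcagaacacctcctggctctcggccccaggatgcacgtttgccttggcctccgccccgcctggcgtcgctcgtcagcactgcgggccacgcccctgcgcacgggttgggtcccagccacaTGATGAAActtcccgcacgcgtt

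**Figure D3:**
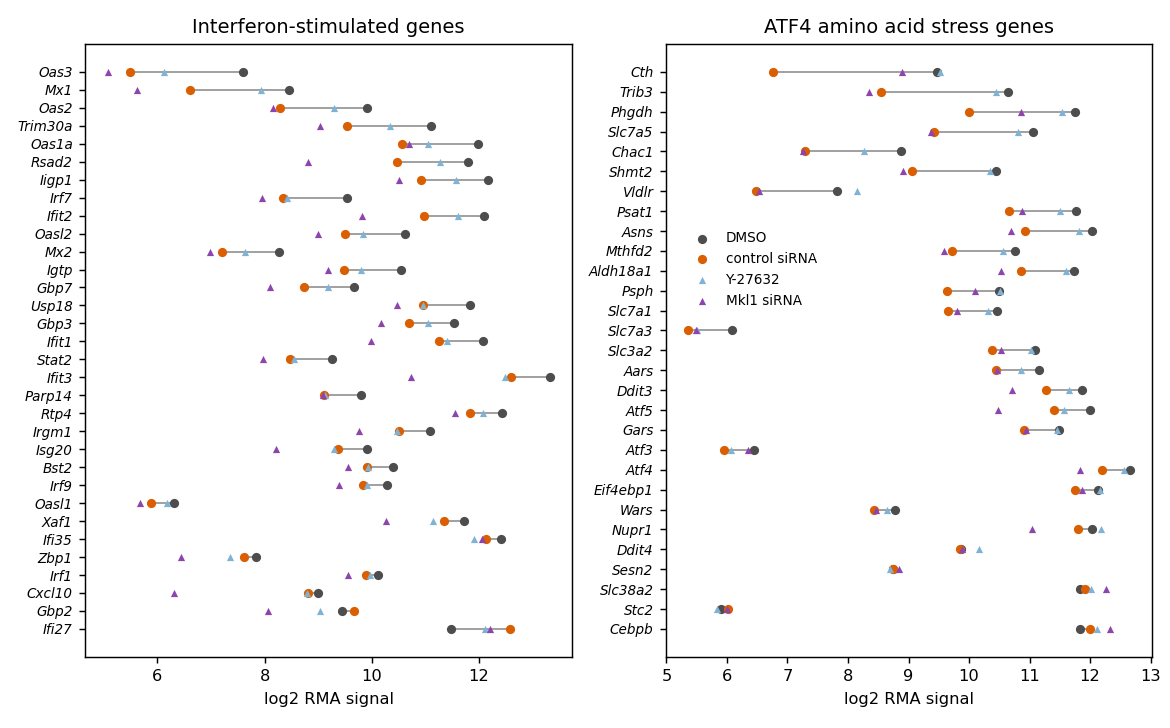
The log2 RMA signal of the 32 analysed interferon-stimulated genes and the 29 analysed ATF4 amino acid stress genes is shown on all 4 arrays; lines join DMSO and control siRNA. In 30 and 26 genes the control siRNA point lies left of the DMSO point, and Ifi27 is the listed gene that was 2-fold higher.

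Genes of cell division were lower by less than 2-fold and with few exceptions. Of 31 analysed genes of G2 and mitosis 29 lay below 0 and 0 passed 2-fold, with a median of -0.41. Top2a, the topoisomerase that untangles chromosomes, was at -0.67, or -0.18 averaged over its probe sets, Mki67, a proliferation antigen, at -0.62 and Aurkb, a mitotic kinase, at -0.61. Of 30 analysed genes of S phase 25 lay below 0, with a median of -0.24, Cdc6, which loads the replicative helicase, at -0.99 and Pcna at -0.03. The cyclins D and CDK inhibitors had a median of 0.02, with Cdkn1a, the inhibitor p21, at -0.02. Whether the number of dividing cells moved with any other gene group was not tested.

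Metabolic genes showed a narrow lower group and a narrow higher group. In the hypoxia and glycolysis list 20 of 22 analysed genes lay below 0, with a median of -0.19. Egln3, an oxygen-sensing hydroxylase, Ndrg1 and Pdk1, which restrains pyruvate oxidation, were 2-fold lower at -1.22, -1.13 and -1.10. Over all genes 1.09% were 2-fold lower. Averaged over their probe sets Egln3 and Pdk1 were at -0.85 and -0.86. Without probe sets whose suffix marks probes shared between transcripts ("shared probe sets"), Pdk1 was at -0.61. In cholesterol synthesis 16 of 19 analysed genes lay above 0, with a median of 0.18. Hsd17b7, a ketosteroid reductase of that pathway, stood at 8.65 with DMSO, 10.84 with control siRNA, 9.23 with Y-27632 and 9.43 with Mkl1 siRNA, but its 4 probe sets ran from 0.12 to 2.19, with an average of 1.47. Idi1, which isomerises isopentenyl diphosphate, was higher by 1.01, or 0.87 averaged over its probe sets. The 27 analysed genes of the respiratory chain had a median of 0.12 and 0 passed 2-fold.

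Matrix genes went in both directions. Of 8 analysed small leucine-rich proteoglycans Lum and Dcn were 2-fold lower, beside 1.09% of all genes, and Omd was higher, beside 0.957%. Dcn encodes decorin, which binds collagen and growth factors, and stood at 12.62 with DMSO, 10.55 with control siRNA, 13.56 with Y-27632 and 11.16 with Mkl1 siRNA. As for Lum, both siRNA arrays were lower than both others. The average of its 2 probe sets was -1.31. Omd, osteomodulin, stood at 10.40, 11.64, 10.19 and 11.16, the reverse order of high and low arrays. Aspn, asporin, was at 0.78 and Bgn, biglycan, at 0.13.

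Fibrillar collagens were nearly level, Col1a1 at -0.34 and Col3a1 at -0.01, and the median of 26 analysed collagen and collagen-processing genes was 0.02. Col12a1, which links fibrils, was the member that passed 2-fold, at 1.63, beside 0.957% of all genes, though the mean of its probe sets was 0.72. In the list of elastic fibre and matricellular proteins 15 of 20 analysed genes lay above 0, with a median of 0.34. Mgp and Ccn5, a matricellular protein of the CCN family, were 2-fold higher at 2.81 and 1.36, beside 0.957% of all genes. Ccn1 and Ccn2, targets of YAP, were at -0.06 and 0.60. Mmp19, a metalloproteinase, was higher by 1.44, and Serpinb2, an inhibitor of plasminogen activators, was at -1.01.

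Of 29 analysed genes of TGF-beta and BMP signalling 19 lay above 0, 5 were at least 2-fold higher, beside 0.957% of all genes, and 1 was 2-fold lower, with a median of 0.27. Inhbb, the subunit of activin B, stood at 7.53 with DMSO, 9.51 with control siRNA, 9.13 with Y-27632 and 9.98 with Mkl1 siRNA. The DMSO array alone was low, and the average over the 2 probe sets of Inhbb was 1.18. Id3 and Id2, which block basic helix-loop-helix factors and respond to BMP, were higher by 1.67 and 1.35. Without shared probe sets Id2 came to 0.74. Id3 stood at 9.99, 11.66, 10.37 and 12.07 across DMSO, control siRNA, Y-27632 and Mkl1 siRNA. Smad6, an inhibitor of BMP signalling, was higher by 1.33 and Grem1, a BMP antagonist, by 1.59. Bambi, a decoy receptor, stood at 7.86 with DMSO, 6.25 with control siRNA, 7.37 with Y-27632 and 5.85 with Mkl1 siRNA. Id1 was at 0.57 and Smad7 at 0.15.

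Of 24 analysed growth factors and receptors 4 were 2-fold higher, beside 0.957% of all genes, and 1 was lower, beside 1.09%, with a median of 0.29. Angpt1, the ligand of the endothelial receptor TIE2, stood at 9.96 with DMSO, 11.61 with control siRNA, 10.74 with Y-27632 and 11.47 with Mkl1 siRNA. Hgf, hepatocyte growth factor, was higher by 1.52, from 6.59 to 8.11, and its receptor Met was lower at -1.19, from 8.64 to 7.45. Met came to -0.58 with the mean of its probe sets. Fgf10 and Fgf7, ligands of one FGF receptor isoform, were at 1.49 and 0.93, and Vegfd, a ligand for lymphatic vessels, at 1.07. Averaged over probe sets Fgf7 came to 1.35 and Vegfd to 0.96, and without shared probe sets Vegfd was at 0.98.

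Inflammatory mediators were mixed. Of 13 analysed chemokines Cxcl14, Ccl11 and Ccl8 were 2-fold higher, beside 0.957% of all genes, and 0 lower, with 7 above 0 and 6 below. The median was 0.68, but it came to 0.35 with the mean of all probe sets and to 0.03 without the filter on low signal. Ccl11, the eosinophil attractant eotaxin, stood at 10.64 with DMSO, 12.72 with control siRNA, 12.10 with Y-27632 and 9.15 with Mkl1 siRNA. Ccl2 and Ccl7, which attract monocytes, were at 0.73 and 0.96, and Cxcl9, an interferon-gamma target, at -0.97. Il33, an alarmin, stood at 10.27 with DMSO, 9.09 with control siRNA, 11.46 with Y-27632 and 7.42 with Mkl1 siRNA. Il6 was at 5.71 and 4.57, where signal is weak. Cp, the ferroxidase ceruloplasmin, was at -1.13, and at -2.34 without shared probe sets. Acute phase genes had 2 higher, beside 0.957% of all genes, and 1 lower, beside 1.09%. Their median was -0.01, or -0.32 without shared probe sets. Among NF-kB feedback genes 0 passed 2-fold, Nfkbia at 0.12 and Tnfaip3 at 0.46.

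The lists closest to the study's subject had medians near level between its 2 controls. Mrtfa, the target of the other siRNA, stood at 8.32 with DMSO and 8.55 with control siRNA, and its relative Mrtfb at 10.15 and 10.43. Of 34 analysed targets of MRTF and SRF 17 lay above 0 and 17 below, with a median of -0.02. Actg2, smooth muscle gamma actin, was the one 2-fold lower, at -1.10, beside 1.09% of all genes. Acta2 was at 0.16, Tagln at 0.39 and Srf at -0.14, while Egr1 was at -0.94. The 22 analysed targets of YAP and TAZ had 0 past 2-fold and a median of -0.05. Of 21 analysed mature adipocyte genes Gpat3, an enzyme of triglyceride synthesis, was 2-fold lower at -1.12, beside 1.09% of all genes, and 0 were higher. Pparg and Cebpa, the main factors of fat cell formation, were at 0.30 and 0.57, and Fabp4, a fatty acid carrier, at -0.11. Of the 4 probe sets of Fabp4 3 lay below 0, their average was -0.46, and without shared probe sets it was at -0.76. Klf15 was at -0.97 and Cd36 at 0.91.

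Further lists held a few members past 2-fold, beside 0.957% of all genes higher and 1.09% lower. Among p53 targets Pmaip1, the BH3 protein NOXA, was higher by 1.73 and Ptchd4 was at -1.35, with Mdm2 at 0.27. In the oxidative stress list Gsta3, a glutathione transferase, was higher by 1.51 beside Nox4, and by 0.94 with the mean of its probe sets. Among sterol efflux genes Abcg1, which exports cholesterol, was higher by 1.27, or 0.78 averaged over its probe sets, and Ch25h, which makes 25-hydroxycholesterol, was at -1.51. Adipose progenitor markers had Sema3c and Mme 2-fold higher, beside 0.957% of all genes, Scara5 lower, beside 1.09%, and Pdgfra at 0.08. Averaged over probe sets Sema3c and Mme came to 0.86 and 0.75. The Wnt, Hox, lysosome, fatty acid synthesis and adipogenic regulator lists had 0 past 2-fold. Of the 237 genes past 2-fold, 34 of the higher and 45 of the lower were in at least 1 of the 46 pathway lists or 8 cell type lists. How many of all analysed genes were in a list was not counted, so these counts say nothing about the lists.

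**Figure D4:**
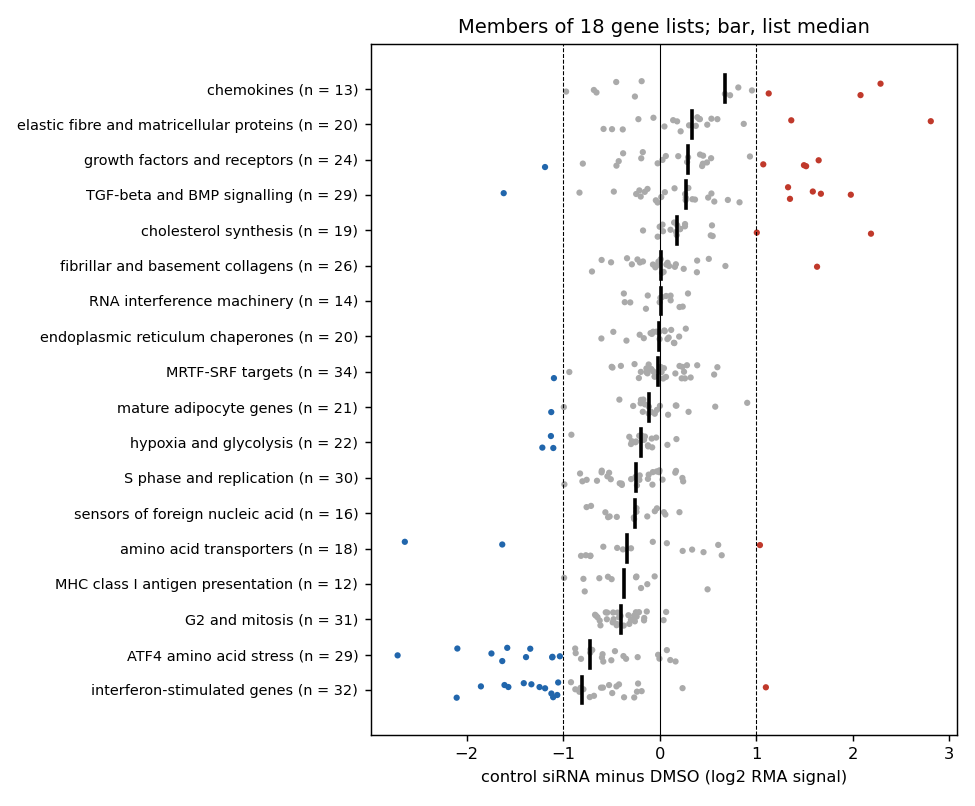
For 18 of the 46 pathway lists, the points are the control siRNA minus DMSO differences (log2 RMA signal) of its analysed genes and the bar is their median. Interferon-stimulated genes (-0.81) and ATF4 amino acid stress genes (-0.72) lie furthest left of those drawn, and chemokines (0.68) furthest right.

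The remaining pair of arrays, Mkl1 siRNA minus Y-27632, shares no array with the control pair. Its values did not enter the 2-fold call, but its arrays counted in the filter on signal and in the choice of probe set. It also sets an siRNA array against one without, but differs in the compound and in the siRNA's target, so it is no replicate. In it 144 genes were 2-fold higher, 1.24% of those analysed, and 319 were 2-fold lower, 2.75%. Of the 126 genes lower with control siRNA, 79 were 2-fold lower there too, which is 62.7% of the 126 and 24.8% of the 319, and 0 were 2-fold higher. Of the 111 higher genes, 40 were 2-fold higher there too, which is 36.0% of the 111 and 27.8% of the 144. The sign was the same in 116 of the 126 lower genes (92.1%) and in 91 of the 111 higher genes (82.0%). The medians there were -1.40 for the lower and 0.76 for the higher genes.

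Single genes showed which differences recurred. Lum, Rgs13 and Plac8 were lower in the second pair by more than in the first, at -6.52, -5.48 and -4.06. For Lum the siRNA arrays were close, 5.08 and 4.91, while Y-27632 stood at 11.43 and DMSO at 9.36. Rgs13 stood at 7.89 with Y-27632 and 5.93 with DMSO, and near the bottom of the scale on both siRNA arrays. Car8, Tnfrsf11b, Prg4 and Ces1g came to 3.16, 3.51, 3.48 and 2.997. Ahr and Olr1 came to 3.42 and 4.30, but Olr1 passed the filter only through the Mkl1 siRNA array of this pair. Cth reached only -0.63 and Aldh1a7 was at 0.57, against -2.71 and -2.35 in the controls. The 6 higher genes that were 2-fold lower in the second pair were Ccl11, Ccl8, Clca2, F13a1, Mgp and Mme. Ccl8, a monocyte attractant, stood at 9.69 with DMSO, 10.82 with control siRNA, 10.34 with Y-27632 and 6.55 with Mkl1 siRNA. Mme, the peptidase neprilysin, stood at 6.78, 7.92, 7.31 and 5.43. For Mgp, Ccl11 and Ccl8 the control siRNA array was the highest of the 4. The interferon list had 30 of 32 genes below 0 and 12 at least 2-fold lower in the second pair, with a median of -0.85. The ATF4 list had 24 of 29 and 9, with a median of -0.63. Not every list recurred. Most cholesterol synthesis genes, above 0 between the controls, were below 0 in the second pair, Idi1, Msmo1 and Fdps at -0.30, -0.83 and -0.58. Of those analysed only Mvk, Hsd17b7, Ebp and Dhcr7 lay above 0 there.

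**Figure D5:**
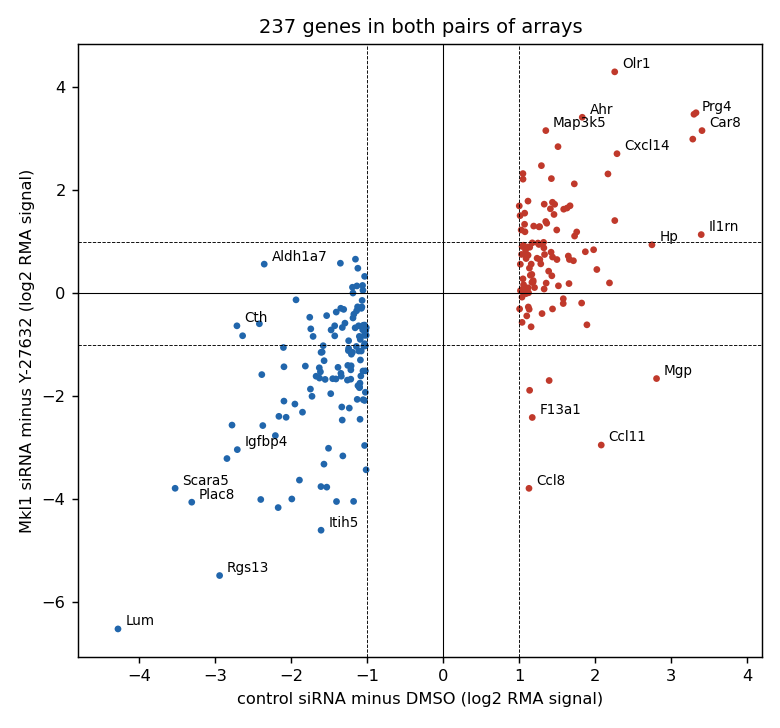
Each point is 1 of the 237 genes past 2-fold between the control arrays, with the control siRNA minus DMSO difference on the x axis and the Mkl1 siRNA minus Y-27632 difference on the y axis (log2 RMA signal); dashed lines mark 2-fold. No lower gene passes 2-fold upward in the second pair, while 6 higher genes pass it downward.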

How the data were processed

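Total RNA was extracted with Trizol and hybridised as biotinylated cRNA, 1 array a group, per the labels' protocols. The authors deposited log2 values for each probe set, computed with RMA according to the submitters' processing notes. RMA subtracts background, equalises the distributions of the arrays and summarises probes. Its version and which arrays it joined were not given in the sources used here. No scanner files were used here. Equal distributions hide any difference in total RNA per cell.

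Gene names came from the platform annotation: 34958 had 1 symbol, 932 several and 9211 none. The gene numbers of 34754 were found in RefSeq (GRCm38.p6) and 204 kept the platform symbol; 64 control probe sets were left out. The brightest probe set by mean of 4 arrays stood for a gene. Differences were taken with Python 3.11.15, numpy 2.4.6, pandas 2.3.3 and, for centring, statsmodels 0.14.6, drawn with matplotlib 3.10.9, and checked on simulated data. The genes named were the 20 steepest on each side whose probe sets did not mostly point the other way, up to 6 members of each list furthest from 0, list members past 2-fold, and reference genes such as Mrtfa and Srf; any others were chosen after their values were seen. Members and lists were chosen with earlier results of these data known. Depth has no meaning for arrays; their number limits the precision. Alternatives were another threshold, probe set choice, filter and an intensity-dependent centring.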

Additional observations from a re-analysis of the deposited data

How the results depend on the processing

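No paired analysis was possible because each group holds 1 array and the groups share no numbered replicates, and leaving out a replicate was not possible either. Over the alternatives run, 0 of the named genes past 2-fold changed sign. The medians of 13 of the 46 lists, all within 0.16 of 0, changed sign under at least 1 alternative, and so did 8 named genes within 2-fold, Snd1 and Thrsp among them. From 1.5-fold 397 genes were higher and 475 lower, 182 and 260 of them in both pairs of arrays. With the filter at the 75th percentile 83 genes were lower, 50 of them in both pairs. The other 26 of 32 recomputed counts stayed within 1.5 times. Of 322 recomputed list medians 315 moved by less than 0.172, the median absolute difference of all genes. With the mean of all probe sets the median was 0.16 for elastic fibre and matricellular proteins and 0.35 for chemokines. Without probe sets marked as shared it was -0.32 for acute phase genes and -0.13 for carbonic anhydrases, which stood at 0.10 before. Chemokines came to 0.030 without a filter and prostaglandin genes to 0.40 at the 75th percentile. A filter on the 2 compared arrays alone, chosen after seeing the data, put the retinoid list at 0.066, against -0.13. Of the values of 318 named genes under the alternatives 2056 kept their side of 2-fold, 20 dropped under it and 6 passed it. Changing the filter leaves a gene's difference as it was, and subtracting the median of -0.01 barely moves it. Many of the 2056 values could therefore hardly change. Genes without a value under an alternative were not counted. Without shared probe sets Car8, Nox4 and Mx1 had none, and Plxnc1 had none with the mean of all probe sets.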

Other observations

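Several gene families had more than 1 member past 2-fold between the control arrays; they were picked after their values were seen, so their direction is no finding. The p200 family of interferon-inducible DNA-binding proteins had Ifi213, Ifi207 and Ifi209 at -2.39, -1.53 and -1.22, and close copies in that family could share probes. Gbp6 and Ddx60, which interferon also induces, were at -1.95 and -1.73. Enzymes near the amino acid genes were lower too: Aldh1l2, Gpt2 and Pck2 were at -1.45, -1.43 and -1.14. Of axon guidance genes Slit2, Nrp2 and Sema3c were higher by 1.72, 1.14 and 1.08, and Sema5a and Plxnc1 were at -1.33 and -2.37. Averaged over probe sets they came to 0.96, 0.73, 0.86, -0.96 and -0.85 in the same order, all under 2-fold. Sema3c is also in the adipose progenitor list. Ngfr, the low-affinity neurotrophin receptor, stood at 9.31 with DMSO, 7.42 with control siRNA, 10.50 with Y-27632 and 6.87 with Mkl1 siRNA. Its 3 probe sets ran from -1.89 to -0.18, with an average of -0.87. The transporters Abca8a and Abca9 were at -2.40 and -1.99. S100a13, S100a5 and S100a1 were higher by 1.39, 1.16 and 1.10, and the near-identical copies Mettl7a1 and Mettl7a2, which probes may not separate, by 1.41 and 1.27.

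Genes best known from blood and vessels also passed 2-fold. Agt, the precursor of angiotensin, stood at 9.61 with DMSO and 11.10 with control siRNA, while its receptor Agtr2 was at -2.17. Tfpi2, F13a1 and Thbd, of coagulation, were higher by 1.58, 1.17 and 1.12, and Vtn and F8 were at -1.63 and -1.08. Mpeg1, a pore-forming protein of macrophages, stood at 10.61 with DMSO, 8.86 with control siRNA, 10.71 with Y-27632 and 8.85 with Mkl1 siRNA. Cd28, Cd300lb, Itgb2 and Alox5ap, also known from leukocytes, were at -1.81, -1.09, -1.03 and -1.04, and were picked for being lower. In the list of macrophage and leukocyte markers Cd14 was higher by 0.70, Csf1r was at -0.04, and 0 of 3 analysed genes passed 2-fold. The summed signal of its 8 genes, not on a log scale, was 421 with DMSO and 494 with control siRNA. Ptprc, which marks all leukocytes, was under the filter on all arrays. Among 10092 probe sets with no symbol or several, 3386 reached the filter, 38 were higher by 2-fold or more and 27 lower.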
